A study of Rattus norvegicus with 18 samples.

Results

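The members are 10 genes that encode chains of cytokine receptors on T cells, namely *Il2ra*, *Il2rb*, *Il2rg*, *Il4r*, *Il7r*, *Il6st*, *Ifngr1*, *Il12rb1*, *Il12rb2* and *Il21r*. They were chosen by gene name, not by their values, and each had 1 row among the 32882 genes of each rat table. Of the 10 genes, 8 reached the minimum mean level for testing in the parenchyma table, 7 in the spleen *Ets1* table and 8 in the spleen *Grk2* table. *Il7r* and *Il6st* reached it in none of the tables, and *Il12rb2* did not reach it in the spleen *Ets1* table.

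RNA of T-MBP cells, CD4+ T cells of Lewis rats that recognise myelin basic protein, was measured by bulk 3′ mRNA-seq on day 3 after intravenous transfer into Lewis rats, in 18 libraries, 3 for each of 6 groups. From the spinal cord parenchyma there were Ets1 KO and NT control groups, from the spleen a further Ets1 KO group with its NT control, and, also from the spleen, a Grk2 KO group with an NT control of its own. The KO cells carried EGFP and a guide against *Ets1*, which encodes a transcription factor, or *Grk2*, which encodes a kinase of G-protein-coupled receptors; the control cells, labelled WT, carried BFP, so that the edit and the fluorescent protein by which cells were sorted cannot be told apart. Before transfer, all cells had been expanded in medium that contained supernatant of EL4IL2 cells, a source of IL-2, and restimulated with myelin basic protein, and the ages of the animals are not given in the labels. *Ets1*-KO and control cells of the parenchyma came from animals that had received a mixture of both. According to the methods, editing was by electroporation of Cas9 with the guide, after which a KO group can still hold cells with an intact gene, and because RNA was read in bulk, fewer cells that express a gene and less RNA per cell cannot be told apart.

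Cytokine receptors of this class have no enzyme of their own. Ligand binding brings chains together, JAK kinases bound to their tails phosphorylate them, and STAT proteins that dock there carry the signal to the nucleus. Chains are shared: the common gamma chain (*Il2rg*) serves the receptors for IL-2, IL-4, IL-7 and IL-21, and gp130 (*Il6st*) serves the IL-6 family, so that the level of a private chain can set which cytokine a CD4+ T cell responds to.

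The guide sequences are shown because they define the KO groups, and the promoters because *Il2ra*, *Il4r* and *Il21r* were higher together in *Ets1*-KO cells from the parenchyma and ETS1 binds a GGAA core. The guides are 20 bases long and printed in lower case throughout.
Ets1 guide: tgctgctcggagttaacagt
Grk2 guide: gatttgtcagaacctccgag

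RefSeq windows of 300 bases on GRCr8, from 250 bases before to 50 bases after the annotated start, were found for 9 of the 10 genes, all but *Il2rb*, with a pair of entries for *Il12rb2*. Capitals mark GGAA, which reads TTCC where it lies on the opposite strand. The first window is chr17:71808426-71808725, minus strand, the second chr1:189545525-189545824, plus strand, and the third chr1:189598503-189598802, plus strand.
Il2ra promoter: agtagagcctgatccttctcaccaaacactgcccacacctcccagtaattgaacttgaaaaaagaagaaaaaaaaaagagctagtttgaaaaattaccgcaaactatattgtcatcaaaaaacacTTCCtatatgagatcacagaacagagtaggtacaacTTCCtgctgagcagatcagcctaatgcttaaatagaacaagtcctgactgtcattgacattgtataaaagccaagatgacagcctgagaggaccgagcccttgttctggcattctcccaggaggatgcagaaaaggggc
Il4r promoter: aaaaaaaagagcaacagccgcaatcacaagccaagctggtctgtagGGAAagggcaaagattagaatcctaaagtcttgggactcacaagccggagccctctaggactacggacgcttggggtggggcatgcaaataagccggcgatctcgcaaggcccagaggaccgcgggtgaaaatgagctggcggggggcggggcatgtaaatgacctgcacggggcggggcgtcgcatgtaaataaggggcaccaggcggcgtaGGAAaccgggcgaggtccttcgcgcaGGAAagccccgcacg
Il21r promoter: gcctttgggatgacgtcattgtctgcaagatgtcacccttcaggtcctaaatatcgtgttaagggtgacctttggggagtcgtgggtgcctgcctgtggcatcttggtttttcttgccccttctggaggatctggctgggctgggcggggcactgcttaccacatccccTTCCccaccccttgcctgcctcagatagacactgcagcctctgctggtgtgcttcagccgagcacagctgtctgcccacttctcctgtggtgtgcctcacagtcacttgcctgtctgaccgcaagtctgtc

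The *Il2ra* window held 2 matches to GGAA, the *Il4r* window 3 and the *Il21r* window 1, and all 9 genes with a window had at least 1 match on either strand. Among all 33469 windows of this length, 95.8% held GGAA, with a median of 3 matches, so that the match does not set these promoters apart. The longer GGAAGT, which contains GGAA, occurred 2 times in the *Il2ra* window, beginning 127 and 91 bases before the start, and in none of the *Il4r* and *Il21r* windows; it was in windows of 3 of the 9 genes and in 22.6% of all windows. CCGGAA was in the windows of 2 of the 9 genes (15% of all windows), CCGGAAGT in 0 (3.81%) and TTCNNNGAA, a STAT core, in 1 (8.87%). These are matches of letters in a window and not sites of binding.

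Depth was between 898092 and 2248258 reads on genes per library, and mitochondrial genes took between 14.06% and 27.41% of reads. The *Ets1*-KO spleen libraries (1909862 to 2248258 reads) were deeper than their controls (898092 to 1213485). The value per gene and library was the normalized count, that is reads divided by the size factor of the library, and each pair of groups was scaled in a table of its own. All 10 T cell marker genes, among them *Cd3e* and *Cd4*, were detected in each table, whereas B cell markers summed to at most 9.9 reads-per-million (RPM, relative to reads on genes) and endothelial markers to at most 0.9 in any library. Other lists reached more. CD8 T and NK cell markers summed to between 157.8 and 214.0 in spleen controls of the *Grk2* table, against 47.9 to 84.9 in those of the *Ets1* table and 50.8 to 54.8 in parenchyma controls. In the *Grk2* table *Cd8a*, *Cd8b*, *Ncr1* and *Eomes* were at 0 in every library, and only 2 listed genes reached the minimum mean level. The sum is therefore no measure of the share of CD8 T or NK cells. Neural markers reached 75.8 in the parenchyma and 107.6 in the spleen *Ets1* table, where red cell markers reached 30.0. *Grk2* itself fell in *Grk2*-KO cells (log2 difference −1.22, SE 0.13, adjusted p = 1.76e-12), and *Ets1* did not pass the test in *Ets1*-KO cells of the parenchyma (0.09, SE 0.07, adjusted p = 0.56) or the spleen (−0.06, SE 0.11, adjusted p = 0.854), so that its RNA level gives no check of the *Ets1*-KO labels.

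In *Ets1*-KO cells from the parenchyma, 4 of the 8 receptor genes tested were higher than in control cells and none was lower. Among all 7002 genes tested 5.23% were called, 2.27% as higher and 2.96% as lower, so that 43.4% of calls were higher. This share was 53.6% with TMM scaling, 54.8% with edgeR and 68.9% of 90 calls with DESeq2. The 4 receptor genes were *Il2ra* (1.54-fold), *Il21r* (1.51-fold), *Il4r* (1.32-fold) and *Il2rb* (1.31-fold), each of them the private or signalling chain of a receptor that works with the common gamma chain. *Il2rg*, the common chain itself, and *Ifngr1* had log2 differences of 0.06 and 0.04. The median log2 difference was 0.40 over the 8 genes and −0.029 over all genes tested.

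*Il2ra* encodes CD25, the chain that raises the affinity of the IL-2 receptor (ENSRNOG00000047647, chromosome 17 of Rnor_6.0, 70499082 to 70548071). Its normalized counts were 668, 638 and 667 in control replicates 1 to 3 and 1044, 1031 and 958 in *Ets1*-KO replicates 1 to 3, from at least 678 reads per library. All *Ets1*-KO libraries lay above all control libraries, by far more than the spread within either group (657.6 ± 17.3 and 1011 ± 46.6; mean ± SD, n = 3). The log2 difference was 0.62 (SE 0.08, adjusted p = 1.89e-12; two-sided exact permutation test over the 6 libraries, p = 0.1, the smallest that 3 against 3 allow).

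*Il2rb*, the beta chain of the IL-2 and IL-15 receptors (chromosome 7, 119701250 to 119716238), had normalized counts of 824, 938 and 850.2 in control cells and 1189, 1131 and 1096 in *Ets1*-KO cells. The groups did not overlap, and the lowest *Ets1*-KO library was above the highest control library. The log2 difference was 0.39 (SE 0.08, adjusted p = 3.58e-05; exact permutation p = 0.1). Thus 2 of the 3 chains of the high-affinity IL-2 receptor rose, whereas *Il2rg* (chromosome X, 71162584 to 71169865), at 1119 ± 94.8 in control cells and 1164 ± 63.7 in *Ets1*-KO cells (SD, n = 3), did not pass the test (adjusted p = 0.754). *Il2rg* overlaps 1 gene on the opposite strand, and whether reads were counted by strand is not given in the sources used here.

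*Il4r*, the alpha chain that binds IL-4 (chromosome 1, 196942363 to 196967220), had normalized counts of 403, 376 and 452 in control cells and 567, 496 and 562 in *Ets1*-KO cells, again without overlap (log2 difference 0.40, SE 0.09, adjusted p = 0.000398). *Il21r*, the private chain of the IL-21 receptor (chromosome 1, 196996580 to 197024166), had 153, 137 and 208 in control cells and 287, 221 and 237 in *Ets1*-KO cells. Control replicate 3 of *Il21r* came close to the lowest *Ets1*-KO library, and the log2 ratio of the pairs ranged from 0.18 to 0.90 (log2 difference 0.59, SE 0.11, adjusted p = 1.81e-05). *Il4r* and *Il21r* are neighbours on the same strand, 29359 bases apart with 0 annotated genes between them. No overlap between the groups, with KO higher, was found for these 4 receptor genes and for 7.87% of all genes tested, and the reverse order for 0 receptor genes and 10.5% of all.

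**Figure D1:**
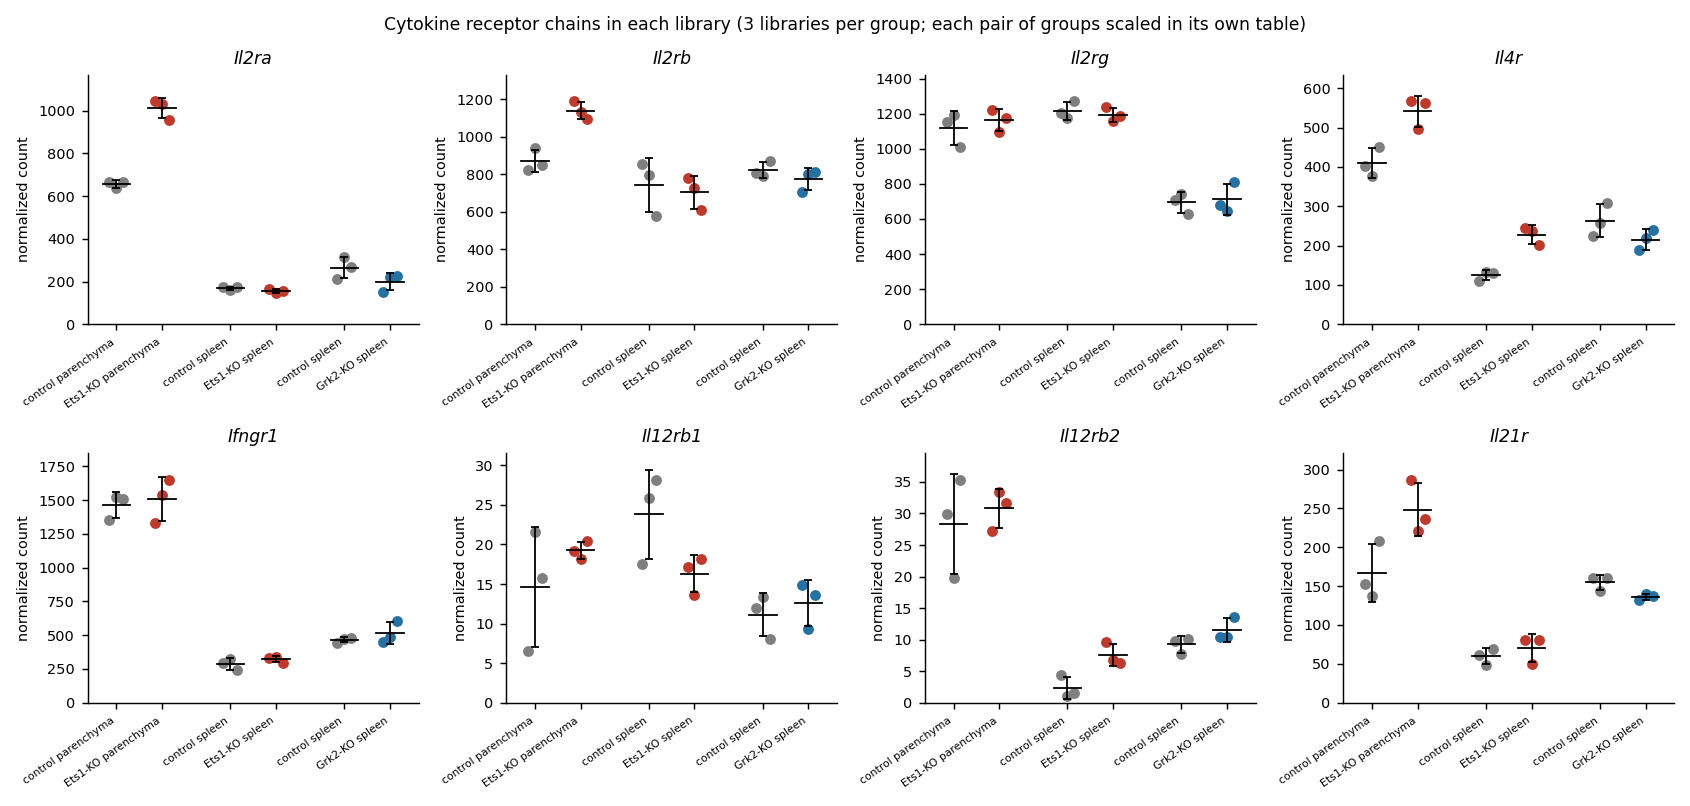
Normalized counts (y axes, from 0) of the 8 receptor genes other than Il7r and Il6st in each of the 18 libraries, by group (x axes; grey control, red Ets1-KO, blue Grk2-KO). Points are libraries, bars the mean and SD of 3; the Ets1-KO parenchyma libraries of Il2ra lie between 958 and 1044, above all controls between 638 and 668.

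The remaining tested chains did not pass in the parenchyma. *Ifngr1*, the ligand-binding chain of the interferon-gamma receptor (chromosome 1, 15062431 to 15080907), was at 1460 ± 96.3 in control and 1506 ± 163 in *Ets1*-KO cells (SD, n = 3; adjusted p = 0.846). *Il12rb1* and *Il12rb2*, which together form the IL-12 receptor, rested on few reads, between 7 and 36 per library. *Il12rb1* (chromosome 16, 20371337 to 20383337) had a log2 difference of 0.51 with an SE of 0.33, and control replicate 1, with 7 reads, gave the widest ratio, 1.42. *Il12rb2* (chromosome 4, 98052841 to 98141482) had a log2 difference of 0.15 (SE 0.25), so that a difference of the size seen for *Il2ra* was not detectable for either gene at this depth.

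The 4 rises rest on the variance that limma estimated across genes. In this fit a gene's own spread between libraries had no weight in its SE and p (infinite prior degrees of freedom). With the variance trend left out, 0 receptor genes and 3 genes in all passed, and the adjusted p was 0.249 for *Il2ra*, 0.362 for *Il2rb*, 0.339 for *Il4r* and 0.324 for *Il21r*; edgeR and DESeq2 on the recovered reads called all 4, with adjusted p of at most 0.0284. Without replicate 1, *Il21r* had a log2 difference of 0.43 and an adjusted p of 0.0534. Alongside these rises, the summed level of the 11 proliferation markers with a row was lower in *Ets1*-KO cells of the parenchyma, between 151 and 210 RPM against 322 and 424 in control cells, with 4 of 6 tested markers called lower. The CD8 T and NK cell markers summed to between 64.2 and 68.7 against 50.8 and 54.8 (*Cd8b* and *Ncr1* at 0), and the myeloid markers to between 28.3 and 43.9 against 16.8 and 33.4 (*Mrc1*, *Cd163* and *Adgre1* at 0). Of the CD8 T and NK cell markers 2 were tested, with log2 differences of 0.44 and −0.3, and 0 were called. The 10 T cell markers summed to between 3879 and 4007 against 3556 and 3775, with 5 above control, 5 below and 0 called. The part of these in the receptor values was not tested.

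In the spleen, *Il4r* was the only 1 of 7 tested receptor genes that differed between *Ets1*-KO and control cells, and it was 1.81-fold higher. Among all 6979 genes, 2.22% were called, 1.02% as higher and 1.2% as lower, so that 45.8% of calls were higher, against 58.3% with TMM scaling. Its normalized counts were 110.5, 133 and 132 in control cells and 244, 238 and 200.4 in *Ets1*-KO cells, from at least 84 reads per library, with no overlap, as was so in this direction for 8.04% of genes and in the other for 8.88% (log2 difference 0.86, SE 0.14, adjusted p = 0.00188; two-sided exact permutation test, p = 0.1). *Il4r* was thus the receptor gene called higher in *Ets1*-KO cells of both tissues, and the pairs differed by between 0.60 and 1.14 on the log2 scale in the spleen. Without replicate 1 its log2 difference was 0.72 and its adjusted p 0.397, where only 3 genes were called in all, and without the variance trend its adjusted p was 0.322.

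*Il2ra*, which rose in the parenchyma, had normalized counts of 173, 158 and 172 in control cells of the spleen and 166, 148 and 156 in *Ets1*-KO cells. These ranges overlapped, with a log2 difference of −0.10 (SE 0.13, adjusted p = 0.793). *Il2rb* (−0.07, SE 0.11), *Il2rg* (−0.03, SE 0.11), *Ifngr1* (0.17, SE 0.12) and *Il21r* (0.21, SE 0.19) had adjusted p of at least 0.545. *Il12rb1* had a log2 difference of −0.50 (SE 0.32, adjusted p = 0.505). *Il12rb2* was too low to test: control libraries held 4, 1 and 1 reads and the deeper *Ets1*-KO libraries 14, 11 and 10, which are normalized counts of 4.4, 1.1 and 1.6 against 9.6, 6.8 and 6.2, without overlap. Without the minimum level, the adjusted p of *Il12rb2* was 0.368.

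Beside these values the proliferation markers again summed to less in *Ets1*-KO cells of the spleen, between 2538 and 2909 RPM against 3847 and 4298, with 7 of 11 tested markers called lower. Neural markers summed to between 69.6 and 107.6 against 38.3 and 62.6; *Nefl*, named after its value was seen, was called higher, and 6 of the 9, among them *Mog* and *Gfap*, were at 0. Myeloid markers summed to at most 6.7 in any library of this table. The part of these lists in the value of *Il4r* was not tested.

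**Figure D2:**
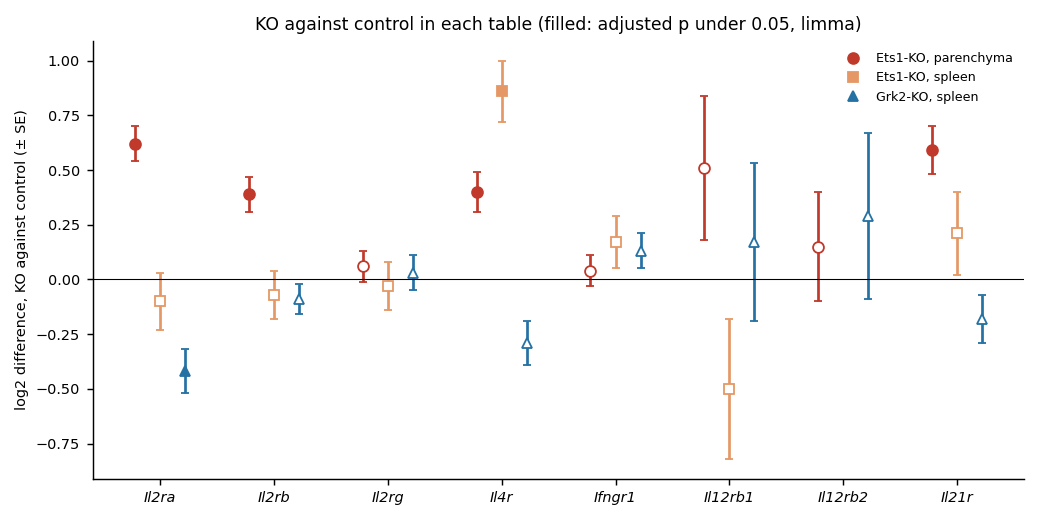
Log2 difference of KO against control (y axis) with its SE for 8 receptor genes (x axis) in the 3 tables, from limma. Filled symbols passed an adjusted p of 0.05: Il2ra (0.62), Il2rb (0.39), Il4r (0.40) and Il21r (0.59) in the parenchyma, Il4r (0.86) with Ets1-KO in the spleen and Il2ra (−0.42) with Grk2-KO in the spleen.

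Whether the effect of *Ets1* editing on the receptor genes differed between the tissues was tested on the log2 ratios of the numbered pairs, 3 per tissue. *Il2ra* was the only 1 of 7 receptor genes called (2.1% of 6520 genes were called, 0.675% with a higher and 1.43% with a lower effect in the parenchyma). Its ratios were 0.64, 0.69 and 0.52 in the parenchyma and −0.06, −0.10 and −0.14 in the spleen, a difference of 0.72 (SE 0.14, adjusted p = 0.00347). All 3 parenchyma ratios were above all 3 spleen ratios, and how many of all genes had such an order was not counted. The difference of *Il2ra* was 0.73 with an adjusted p of 0.0979 without replicate 1, and its adjusted p was 0.225 without the variance trend.

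*Il2rb* had ratios of 0.53, 0.27 and 0.37 in the parenchyma and −0.14, −0.13 and 0.07 in the spleen. The difference of 0.45 (SE 0.13) had an adjusted p of 0.0617, with edgeR 0.0337. *Il4r* had ratios of 0.49, 0.40 and 0.31 in the parenchyma and of 1.14, 0.83 and 0.60 in the spleen. Its difference had the opposite sign, −0.46 (SE 0.16), and did not pass (adjusted p = 0.131). For *Il21r* (0.38, SE 0.21) and *Il12rb1* (1.02, SE 0.47) the adjusted p was 0.443 and 0.319. The larger rise of *Il21r* in the parenchyma was therefore not shown to differ from the spleen. *Il2rg* (0.09, SE 0.13) and *Ifngr1* (−0.13, SE 0.13) had adjusted p of 0.844 and 0.727. The tables differ in tissue, isolation and sequencing depth, which cannot be told apart in this difference.

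**Figure D3:**
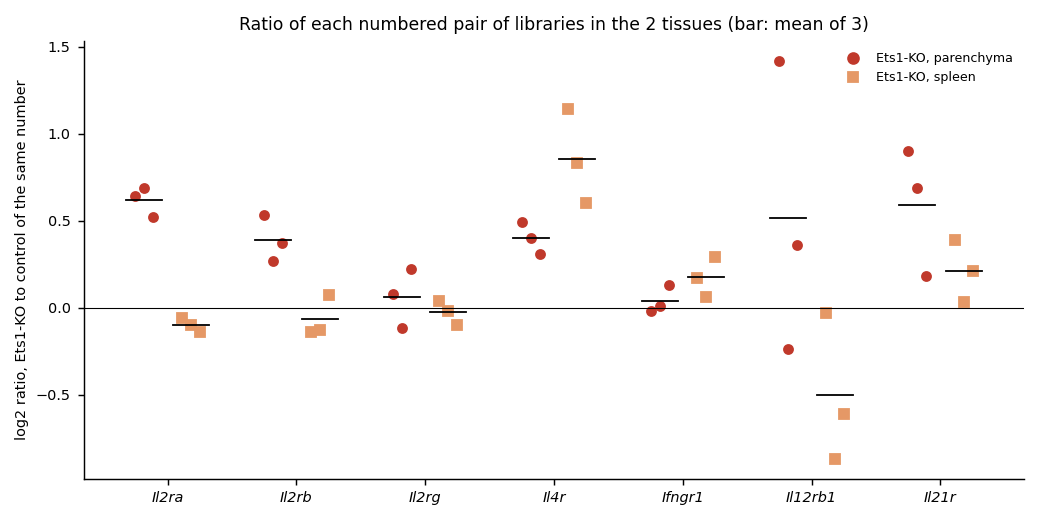
Log2 ratio of Ets1-KO to control for each numbered pair of libraries (y axis) for 7 receptor genes (x axis), circles for the parenchyma and squares for the spleen, bars for the mean of 3. The ratios of Il2ra lie between 0.52 and 0.69 in the parenchyma and between −0.14 and −0.06 in the spleen.

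In *Grk2*-KO cells of the spleen, *Il2ra* was the only receptor gene of the 8 tested that was called, and it was lower (1.56% of 6985 genes were called, 0.931% as higher and 0.63% as lower, so that 59.6% of calls were higher, against 45.3% after quantile normalization). Its normalized counts were 214, 314 and 267 in control cells and 152, 219.5 and 225 in *Grk2*-KO cells. The groups overlapped, but each *Grk2*-KO library was below the control library of the same number, by 0.49, 0.51 and 0.25 on the log2 scale. The log2 difference was −0.42 (SE 0.10, adjusted p = 0.00512), and the exact permutation test, which ignores the pairs, gave p = 0.3. Without the replicate block the adjusted p was 0.327, with DESeq2 0.738 and without the variance trend 0.535. Without replicate 1 or 2 it was 0.151 and 0.48.

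*Il4r* had normalized counts of 225, 257 and 309 in control cells and 188, 218.5 and 239 in *Grk2*-KO cells. It too was lower in all 3 pairs, with overlapping groups, and it did not pass (log2 difference −0.29, SE 0.10, adjusted p = 0.121). *Il21r* had 160.4, 144 and 161 in control cells and 132, 139.8 and 137 in *Grk2*-KO cells, without overlap, but the difference did not pass (−0.18, SE 0.11, adjusted p = 0.593). KO libraries below all control libraries were found for 4.62% of all genes tested. *Il12rb2*, from 7 to 15 reads per library, was without overlap in the other direction, which was so for 7.59% of genes (0.29, SE 0.38, adjusted p = 0.844).
The IL-2 receptor chains *Il2rb* (−0.09, SE 0.07) and *Il2rg* (0.03, SE 0.08) did not pass, nor did *Ifngr1* (0.13, SE 0.08) or *Il12rb1* (0.17, SE 0.36), with adjusted p of at least 0.584. Regulatory T cell markers summed to between 141 and 174 RPM in *Grk2*-KO cells against 193 and 216 in control cells. *Tnfrsf18*, named after its value was seen, was called lower, and *Ikzf2* was at 0 in all 6 libraries. *Foxp3*, also named after its value was seen, was nearly absent (mean normalized count 0.71, highest library 2.22). Only 2 of the 4 listed markers reached the minimum level, so the sum is no measure of the share of regulatory T cells. Proliferation markers summed to between 2148 and 2646 against 1702 and 2319, with 3 of 11 tested markers called higher. Their part in the value of *Il2ra* was not tested. The *Grk2* and *Ets1* comparisons in the spleen used different control libraries.

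The levels in control cells were set side by side in RPM, with no test, because each table was scaled separately and came from its own libraries. *Il2ra* was at 463 ± 21.4 in the parenchyma, 125 ± 4.49 in the spleen of the *Ets1* table and 203 ± 37.6 in the spleen of the *Grk2* table (SD, n = 3 each), which put the parenchyma 3.70- and 2.28-fold above the spleen groups. *Il4r* was at 289 ± 30.7 against 93.3 ± 10.0 and 202 ± 28.0. *Ifngr1* showed the widest gap of the receptor genes with at least 10 RPM, 1030 ± 53.9 against 214 ± 40.3 and 357 ± 8.72. For these 3 of 7 receptor genes at that level, every parenchyma library was above every spleen library, as was so for 10.3% of 6661 genes, and for 0 of the 7 was every parenchyma library below, as was so for 15.7%; 26.0% of genes did not overlap in either direction.

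The order of the other chains depended on the spleen group. *Il21r* was at 117 ± 27.3 in the parenchyma, close to 119 ± 7.28 in the spleen of the *Grk2* table, and at 44.2 ± 6.01 in the spleen of the *Ets1* table. *Il2rg* was at 787 ± 61.6, between 535 ± 53.5 and 906 ± 2.64 of the spleen groups. *Il2rb* varied least across these groups, at 612 ± 29.0, 557 ± 127 and 633 ± 22.8, ranges that overlapped. *Il12rb2*, below the level set for the count, was at 20 ± 5.86 in the parenchyma and at 1.75 ± 1.35 and 7.08 ± 0.941 in the spleen, without overlap, and *Il12rb1* at 10.2 ± 5.16, 17.7 ± 3.94 and 8.56 ± 2.19.
The spleen control groups of the 2 tables, of 1 tissue and genotype, did not overlap for *Il2ra*, *Il2rg*, *Il4r*, *Ifngr1*, *Il12rb1*, *Il12rb2* and *Il21r*, and for 61.5% of all 6661 genes. A gap of the size of that between these groups (1.63-fold for *Il2ra*, 2.17-fold for *Il4r*, 2.7-fold for *Il21r*) therefore arose without a difference of tissue.

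**Figure D4:**
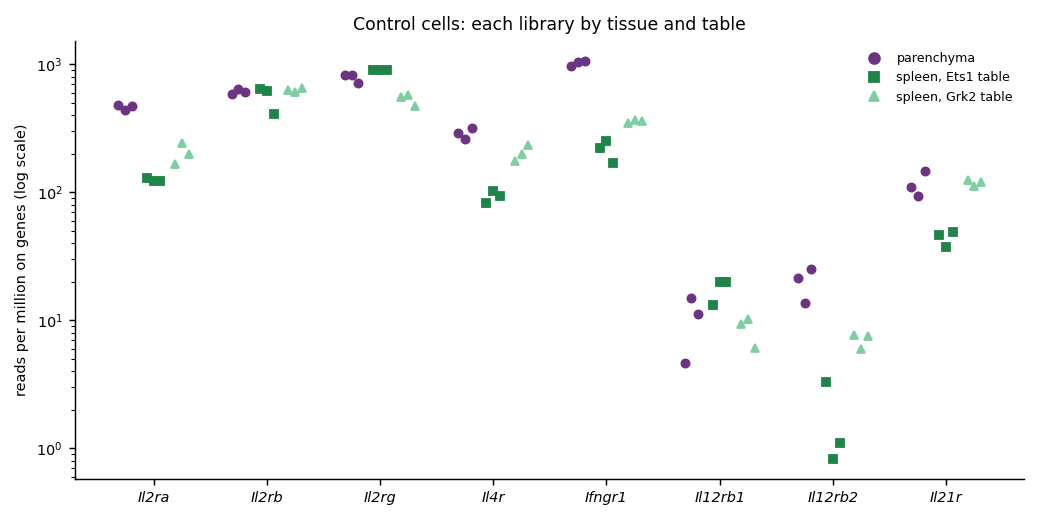
RPM (y axis, log scale) of 8 receptor genes (x axis) in the 9 control libraries, circles for the parenchyma and squares and triangles for the spleen groups of the Ets1 and Grk2 tables. All parenchyma points of Il2ra, Il4r, Ifngr1 and Il12rb2 lie above all spleen points.

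*Il7r* encodes the alpha chain of the IL-7 receptor, which naive and memory T cells carry and activated T cells lower. It had 0 reads in all 18 libraries, which allows between 1.33 and 3.34 RPM (3 reads) depending on the depth, counting error only. In Rnor_6.0 its row lies on the unplaced scaffold KL567908.1 (25354 to 47617), whereas its GRCr8 window lies on chromosome 2. Whether 3′ reads of *Il7r* could be counted on this row was not tested, so the 0 and its RPM limit hold only for reads assigned to the row. *Il6st* (chromosome 2, 44289392 to 44314944) had 29 reads in all, 0 in 8 libraries and at most 8 in any. Its reads were 1, 1 and 2 in control and 7, 8 and 1 in *Ets1*-KO libraries of the parenchyma, too few to test.

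Of 32 genes of other cytokine receptor chains, 15 were tested in the parenchyma, with 0 called higher and 1 lower in *Ets1*-KO cells. This was *Il17ra*, the common chain of the IL-17 receptors (443 ± 47.7 against 347 ± 24.3; log2 difference −0.35, SE 0.09, adjusted p = 0.00733, without the replicate block 0.0548). The median over the 15 was −0.14. In the spleen 13 were tested in either table and 0 called, with 1 at an unadjusted p under 0.05 in the *Ets1* table and 0 in the *Grk2* table, a mark that 14.1% and 10.4% of all genes reached.
Of 18 genes of cytokines that bind the receptors, *Il21* and *Ifng*, the ligands of *Il21r* and *Ifngr1*, reached the minimum level in the parenchyma, *Osm* in the spleen of the *Grk2* table and none in the spleen of the *Ets1* table (these names were chosen after their values were seen). None was called, and 1 in the parenchyma had an unadjusted p under 0.05, as 16.9% of all genes there did.

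The 10 JAK and STAT genes with a row were tested in each table. In *Ets1*-KO cells of the parenchyma 0 rose, and among those that fell was *Stat2*, which acts in type I interferon signalling, from 206 ± 33.4 to 155 ± 35.5 (SD, n = 3; log2 difference −0.42, SE 0.12, adjusted p = 0.0113, without the replicate block 0.116). Of the list, 0 were called in either spleen table, with 1 at an unadjusted p under 0.05 in the *Ets1* table and 2 in the *Grk2* table.
Of 19 negative regulators, the SOCS proteins and phosphatases among them, between 12 and 14 were tested per table and 0 called, with 1 or 2 at an unadjusted p under 0.05.

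Among 20 known targets of cytokine receptor signalling, 12 were tested in the parenchyma. In *Ets1*-KO cells 3 were called higher and 0 lower, against 2.27% and 2.96% of all genes. The differences went both ways, 8 above and 4 below 0, and ranged from −0.69 to 0.66. An unadjusted p under 0.05 was found for 8 of the 12, against 16.9% of all genes. *Ccnd2*, a D-type cyclin, rose from 87.2 ± 11.1 to 138 ± 8.57 (log2 difference 0.66, SE 0.14, adjusted p = 0.000185). *Batf*, a transcription factor of effector T cells, rose from 168 ± 16.1 to 231 ± 28.1 (0.46, SE 0.11, adjusted p = 0.00269), and *Tbx21*, which encodes T-bet, from 548 ± 10.2 to 697 ± 37.6 (0.35, SE 0.08, adjusted p = 0.00169; SD, n = 3 for each). The median over the 12 was 0.05. In the spleen, *Maf* of 11 tested was higher in *Ets1*-KO cells (109 ± 9.40 against 163 ± 29.1; 0.57, SE 0.15, adjusted p = 0.0422, without the replicate block 0.0962), and *Ccnd3*, another D-type cyclin, of 12 tested in *Grk2*-KO cells (385 ± 28.0 against 503 ± 61.8; 0.38, SE 0.08, adjusted p = 0.00172, without the replicate block 0.142). Without the variance trend none of the genes named from these lists passed, with adjusted p between 0.278 and 0.599.

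Across the 18 libraries, after the mean of each table was subtracted from the log2 values, Pearson's r between pairs of the 7 receptor genes at the minimum level in all tables ranged from −0.23 (*Il4r* and *Il12rb1*) to 0.59 (*Il2ra* and *Il2rb*). *Il2ra* and *Il21r* had r = 0.56 and the neighbours *Il4r* and *Il21r* r = 0.49, where libraries of 1 table share a scaling and groups of 1 genotype. Of 6207 genes, the most similar in pattern were *Kif3a*, *Pdcd11* and *Sec14l1* for *Il2ra* (r = 0.74, 0.74 and 0.72), *Mafg*, *Snrnp40* and *Nop9* for *Il2rb* (0.81, 0.78 and 0.78), *Ccl5*, *Snrnp48* and *Slc41a1* for *Il4r* (0.89, 0.87 and 0.86), and *Rap2a*, *Psmd14* and *Batf* for *Il21r* (0.85, 0.81 and 0.79). These values describe likeness over 18 libraries and were not tested.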

How the data were processed

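The 18 rat libraries were analysed, with groups and replicate numbers taken from the labels. According to the methods and the submitters' processing notes, the authors aligned reads of a 3′ mRNA kit to Rnor_6.0 with STAR 2.7.2b without trimming, counted them with HTSeq 1.0.0 and divided the counts by size factors of DESeq2 2.11.40.7 (poscounts). The signal values as deposited are these normalized counts, in 3 tables. All positive values (100%) were whole reads times 1 step per library (tolerance 0.01 reads), so reads were recovered. Columns of the authors' comparisons (log2 fold changes, p-values) and 8 columns of per-sample values of other samples were not used.

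A gene entered a test if its normalized counts averaged 10 or more across a table. The test was limma 3.58.1 in R 4.3.3 (lmFit, then eBayes with a variance trend) on log2 of the normalized count plus 1, blocked by replicate number, two-sided, with Benjamini-Hochberg adjustment over all genes tested and a threshold of 0.05. Differences are KO minus control on that scale, which understates changes of low genes. The tissue test used the log2 ratios of numbered pairs. Exact permutation tests had 20 labellings. Alternatives were no replicate block, other pseudocounts, minimum levels and scalings, no variance trend, edgeR 4.0.16 and DESeq2 1.42.0 on recovered reads, and each replicate left out. The scripts were tested on simulated data. The text names the 10 receptor genes, *Ets1* and *Grk2*, called genes of the fixed pathway lists (up to 5 in each direction), the 3 genes most like each called receptor gene in pattern, and marker genes; other names are marked as chosen after their values were seen. A called gene of these lists is not reported here. The receptor genes and lists were chosen with earlier results of these data known. The block was used because the methods name a correction for the animal where it applied and describe co-transfer for the parenchyma; for the spleen libraries co-transfer is not stated in the sources used here. The labels number the replicates but do not say which came from 1 animal, so p-values concern these libraries only. In the parenchyma fit the prior degrees of freedom were infinite, so the variance of each gene was that of the trend across genes. They were 21.97 for *Ets1* in the spleen, 141.3 for *Grk2* and 33.11 for the tissue test. There a gene's own spread had little weight beside the trend.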

Additional observations from a re-analysis of the deposited data

Results flagged for a closer look

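*Il2ra* was picked out because the effect of *Ets1* editing on it differed between the tissues by a test of the difference itself, 0.72 on the log2 scale (SE 0.14, adjusted p = 0.00347 from limma on 3 ratios per tissue). It was higher in 3 of 3 pairs in the parenchyma. In the spleen the pairs had log2 ratios of −0.06, −0.10 and −0.14, the groups overlapped and *Il2ra* was not called (limma, adjusted p = 0.793). Over the 12 alternatives the difference between the tissues ranged from 0.68 to 0.75 and its adjusted p from 0.00158 to 0.225.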

How the results depend on the processing

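Of 377 repeated values for the receptor genes under the alternatives, 352 kept their direction and did not cross the threshold. These include values from DESeq2 without an adjusted p, and differences not called in the main fit. In 14 a difference called in the main fit was no longer called, in 3 an uncalled one passed, and in 8 an uncalled one turned its sign. The count is therefore no measure of how stable the calls were. Same-numbered libraries correlated between −0.003 and 0.175 in their deviations from the group means, at 0.1 or less in 4 of 9 pairs, and 14 of 18 libraries correlated best with their own number; the labels do not say that equal numbers mark 1 animal. Without the replicate block 200, 71, 19 and 47 genes were called in the parenchyma, spleen *Ets1*, spleen *Grk2* and tissue comparisons in place of 366, 155, 109 and 137, and the receptor genes called were 4, 1, 0 and 1. Without the variance trend, 3, 0, 0 and 2 genes and 0 receptor genes were called in these comparisons, where the prior degrees of freedom lay between 3.05 and 3.72. DESeq2 called 90, 48 and 9 genes in the KO comparisons and 0 receptor genes with *Grk2*, edgeR 238 genes with *Ets1* in the spleen, and no minimum level gave 212 and 242 genes with *Ets1* in the parenchyma and spleen. A minimum of 50 left 60 genes with *Grk2*. In the tissue comparison 2 receptor genes, *Il2ra* and *Il2rb*, were called with a minimum of 50, quantile normalization and edgeR. The cause of these changes was not tested.

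With each replicate left out in turn, between 165 and 278 genes and between 3 and 4 receptor genes were called in the parenchyma, between 3 and 241 genes and 0 and 1 receptor genes with *Ets1* in the spleen, between 9 and 48 genes and 0 and 1 with *Grk2*, and between 27 and 98 genes and 0 and 1 in the tissue comparison. Signs of uncalled differences turned in these fits: in the parenchyma *Il2rg* ranged from −0.02 to 0.15, *Ifngr1* from −0.00 to 0.07 and *Il12rb2* from −0.14 to 0.30; *Il2rg* ranged from −0.06 to 0.01 with *Ets1* in the spleen (0.00 with TMM scaling), from −0.13 to 0.15 with *Grk2* and from −0.03 to 0.18 between tissues, and *Il12rb1* from −0.09 to 0.49 with *Grk2*. The 3 receptor genes whose control levels in the parenchyma lay above the spleen numbered 3 under TMM, with mitochondrial reads left out and with each replicate left out. *Il12rb1* and *Il12rb2*, at 36 or fewer reads per library, are limited by depth, and *Il7r* and *Il6st* could not be tested.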
